A study of Homo sapiens with 16 samples.

Results

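Exonic regions of the merged m6A peak list that were called in the resistant MDV-R line and not in its parental line C4-2B numbered 606, out of 36970 merged regions. The number depends on the lists: it was 299, with 116 of the 606 among them, when every list was limited to the size of the smallest, and 1011 without MDV-R replicate 3. They were chosen by the peak calls themselves: a member was overlapped by a peak, by at least 1 base, in each of the 4 MDV-R lists and in no C4-2B list, and its midpoint lay in an exon of any GENCODE transcript on chromosomes 1 to 22 or X. Members made up 3.07% of the 19711 exonic regions, and 1327 regions of any position had the same pattern of calls. For comparison, 7363 exonic regions were called in all 8 lists, and 178 had the opposite pattern, called in every C4-2B list and no MDV-R list. Since presence and absence of a call chose the members, their strength in MDV-R is given as a description with no test, and no C4-2B value exists for them.

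Both groups were human prostate cancer cells in culture, labelled wild type. C4-2B is sensitive to enzalutamide, an androgen receptor antagonist, and was grown in RPMI with fetal bovine serum. MDV-R was derived from C4-2B by serial exposure to enzalutamide and was kept in medium with 5 µM of the drug. Each line gave 4 immunoprecipitated (IP) and 4 input libraries at day 3, 16 samples in all, and each IP library was called against input. One resistant line was set against its parent, so the resistant state, the drug in the medium and anything else that separates these cultures cannot be told apart. Nothing in the labels says whether the replicates were separate cultures, so the spread between them may be technical. The titles of the MDV-R samples carry the name of a bladder cancer derivative (T24R2), whereas their cell line field reads MDVR, which was followed here.

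N6-methyladenosine (m6A) is a methyl mark on adenosines of RNA, written in the nucleus mainly by the METTL3 and METTL14 complex within a short motif whose commonest core is GGAC. It is removed by the demethylases FTO and ALKBH5 and read by YTH domain proteins, which affect splicing, translation and decay of the marked transcript. In most tissues it is densest around stop codons, in 3′ UTRs and in long internal exons. In MeRIP-seq, RNA fragments are captured with an antibody to m6A, and a peak is a place where the captured fragments exceed what the input fragments nearby would give. A call therefore depends on capture by the antibody and on enough RNA of that transcript, and does not by itself establish the mark. In bulk RNA, fewer cells with a transcript and less of it per cell cannot be told apart.

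For each peak, 2 quantities were solved from the deposited values: the IP tags at the summit, scaled to a library of average depth (scaled tags), and the local background, the tag density expected from input, as a multiple of the library-wide background. Their ratio underlies the fold enrichment in the lists. The library-wide value is the lowest background a peak can have, so 1.00 is a floor and not a measured input level. The 4 C4-2B lists held 13191 to 24746 peaks and the 4 MDV-R lists 23880 to 30645, with the fewest in C4-2B replicate 1. Relative IP depth was between 0.893 and 1.16 of the mean in all 8 libraries. Input tags per IP tag were 0.747 to 1.22 in C4-2B and 1.56 to 3.15 in MDV-R, so input depth separates the lines completely and its part in the calls was not tested. Of 14 prostate luminal markers, 8 had peaks in all 4 C4-2B lists and 10 in all 4 MDV-R lists, KRT8 and KRT18 having none in either line. Of 14 urothelial and bladder markers, 10 had no peak in any C4-2B list and 11 none in any MDV-R list, while UPK2 and VIM had peaks in all 8. The bladder marker UPK3A had peaks in 2 C4-2B and 4 MDV-R lists, and the prostate marker TRPM8 in 2 C4-2B and no MDV-R list.

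The sequences under the strongest members show how different the called places are. Each is written in the direction of the transcript on hg38, in lower case with every GGAC in capitals. The first set holds windows of up to 101 bases around a summit in coding sequence. ACTB, MRFAP1 and FSTL5 were among the 4 strongest coding members, NRG2, KCNJ3 and NRXN2 were among those with the highest fold enrichment and were picked after their values were seen, and THBS1, shortened at an exon boundary, was an assay gene of the study.
ACTB, chr7:5527758-5527858, minus strand: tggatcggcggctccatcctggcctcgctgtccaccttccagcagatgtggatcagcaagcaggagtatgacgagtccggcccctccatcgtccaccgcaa
MRFAP1, chr4:6640965-6641065, plus strand: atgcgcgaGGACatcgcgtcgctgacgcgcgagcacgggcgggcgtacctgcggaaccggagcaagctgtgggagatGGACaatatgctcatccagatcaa
FSTL5, chr4:161385973-161386073, minus strand: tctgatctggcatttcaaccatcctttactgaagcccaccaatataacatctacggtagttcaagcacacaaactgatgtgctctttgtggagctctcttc
NRG2, chr5:139848030-139848130, minus strand: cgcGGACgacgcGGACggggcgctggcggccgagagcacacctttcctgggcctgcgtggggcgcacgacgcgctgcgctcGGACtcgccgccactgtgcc
KCNJ3, chr2:154854976-154855076, plus strand: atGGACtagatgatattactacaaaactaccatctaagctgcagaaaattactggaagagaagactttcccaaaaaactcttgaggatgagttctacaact
NRXN2, chr11:64607726-64607826, minus strand: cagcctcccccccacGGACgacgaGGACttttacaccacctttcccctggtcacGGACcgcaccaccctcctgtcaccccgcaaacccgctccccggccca
THBS1, chr15:39591505-39591558, plus strand: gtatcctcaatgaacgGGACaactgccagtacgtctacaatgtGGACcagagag

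The second set holds the summits of 3 of the 4 strongest members in long non-coding RNAs (lncRNAs), shown because non-coding exons took a larger share of members than of regions called in all 8 lists.
ST7-AS1, chr7:116954108-116954208, minus strand: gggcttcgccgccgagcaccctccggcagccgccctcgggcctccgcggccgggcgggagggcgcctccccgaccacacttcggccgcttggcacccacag
ENSG00000230454, chr3:50261238-50261338, plus strand: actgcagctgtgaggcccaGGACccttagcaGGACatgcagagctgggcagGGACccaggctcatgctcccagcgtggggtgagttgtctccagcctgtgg
LINC00923, chr15:97874306-97874406, minus strand: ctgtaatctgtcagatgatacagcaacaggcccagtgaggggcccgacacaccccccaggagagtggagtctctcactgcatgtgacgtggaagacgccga

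The third set gives 28 bases around the GGAC nearest the summit in 3′ UTR members, since a longer stretch is not needed to show the motif.
CBLN2, chr18:72538123-72538150, minus strand: gaatggcaaactGGACccaGGACtccgc
TENM2, chr5:168262561-168262588, plus strand: ggcccgcgtcctGGACcaggcgagacag
TMED10, chr14:75134815-75134842, minus strand: agaacatcgctgGGACgtgcctggccta
ZNF516, chr18:76362093-76362120, minus strand: gttgtgtgtgttGGACagagtggcgagg
SHISA9, chr16:13236161-13236188, plus strand: gaactcccataaGGACcatgaccgtgga

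Each printed window follows the summit of 1 list, and summits differ between lists. FSTL5 and LINC00923 had no GGAC within 50 nt of the summit in any of the 4 lists. For ACTB the printed window, from MDV-R replicate 1, lacks it, but those of the other 3 lists held it. MRFAP1, NRG2, NRXN2 and THBS1 had it in all 4 lists, ENSG00000230454 in 3, KCNJ3 in 2 and ST7-AS1 in 1.

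The 606 members lay in 556 genes on 23 chromosomes. Of these genes, 423 were protein-coding, 97 were lncRNA genes and 36 were of other types, mostly pseudogenes. In 514 genes there was a single member, in 35 there were 2, and in 7 there were 3 or more. Members were found in different settings. In 290 members, 47.9% of all, the gene had no C4-2B peak anywhere, and these lay in 261 genes, 173 of them coding and 59 lncRNA. In 147 members, in 138 genes, the same gene had another region shared by all 8 lists, so MDV-R had an additional called site in a transcript already called in both lines.

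Few members lay next to a C4-2B peak. The nearest C4-2B peak was within 200 nt for 7 members, within 500 nt for 40 (6.60%) and within 1000 nt for 84 (13.9%), and the median distance was 15339 nt. Only 2 members, neighbouring parts of SLC6A10P, rested on the same 4 summits. The midpoint of 34 members (5.61%) lay in exons of more than 1 gene, and since the lists carry no strand, the gene named for those is one of several.

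Coding sequence (CDS) was the largest class but took less of the members than of the regions called throughout. It held 34.5% of members (Wilson 95% interval 30.8 to 38.4) against 54.3% (53.1 to 55.4) of regions called in all 8 lists. Exons of 3′ UTRs held 22.8% (19.6 to 26.3) against 26.2%. Exons of 5′ UTRs held 10.7% (8.51 to 13.4) against 5.73% (5.22 to 6.29). Exons of lncRNA genes held 17.0% (14.2 to 20.2) against 8.58% (7.97 to 9.25), and together with non-coding transcripts of coding genes and with pseudogenes, non-coding exons held 32.0% (28.4 to 35.8) against 13.8%. The 178 regions called only in C4-2B had nearly the same make-up as the members, with 32.6% in CDS (26.1 to 39.8), 8.43% in 5′ UTRs and 35.4% in non-coding exons. The departure from the regions called in all 8 lists was thus found on both sides and was not particular to MDV-R. Intervals cover counting error only.

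**Figure D1:**
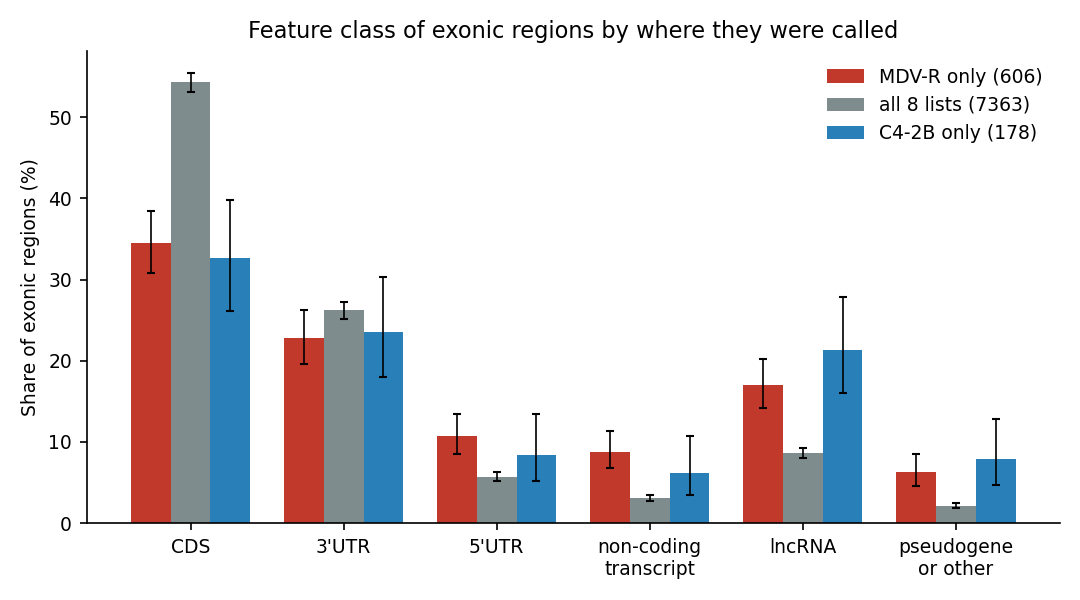
Share of exonic regions (percent, vertical axis) in each feature class (horizontal axis) for the members, for regions called in all 8 lists and for regions called only in C4-2B, with Wilson 95% intervals as error bars. CDS is 54.3% of regions called in all 8 lists, 34.5% of members and 32.6% of C4-2B-only regions, and lncRNA exons are 8.58%, 17.0% and 21.3%.

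Among 412 members placed in coding transcripts, 116 (28.2%, Wilson 95% interval 24 to 32.7) had their midpoint within 200 nt of the stop codon, against 25.4% of the regions called in all 8 lists. The start of the transcript differed more, with 40 members (9.71%, 7.21 to 13.0) within 200 nt of it against 3.54%. First exons held 13.8% of these members against 7.70%, and last exons 56.8% against 62.6%. Of 99 members in internal coding exons, 65 (65.7%, 55.9 to 74.3) were in exons longer than 400 nt, against 90.8%. Members were also shorter, with a median length of 652 nt (range 291 to 3383) against 1094 nt. Regions called only in C4-2B resembled the members in first exons (13.0%, 8.07 to 20.4) and in median length (728 nt), with 60.9% in last exons, 20.9% (14.4 to 29.2) in the stop codon window and 6.09% (2.98 to 12) in the window at the transcript start.

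Members were weaker than the regions called throughout. Their mean level over the 4 MDV-R lists had a median of 21.7 scaled tags (interquartile range 15.4 to 33.0, range 6.39 to 181) against 63.0 in the regions called in all 8 lists and 22.6 in those called only in C4-2B, measured there in C4-2B. Within their own lists the members' peaks stood at a median percentile of 43.5 by strength, against 82.4. Median fold enrichment was 8.22 (range 3.07 to 38.6) against 14.2, and median local background was 4.90 (range 1.00 to 178) against 11.4. The 4 MDV-R lists gave similar medians for the members, at 22, 23.2, 22.3 and 19.9 scaled tags. Replicate 3 had the highest background, 7.51 against 4.38, 4.04 and 3.71 in replicates 1, 2 and 4, and the lowest fold enrichment, 7.21 against 7.69, 8.26 and 9.20.

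The C4-2B background near a member can be read only in genes with another region called in all 8 lists, and only at that region. At that background the member's mean MDV-R level would have passed the threshold of all 4 C4-2B lists for 93 of 147 members (63.3%), and 20 (13.6%) in none, among them members of ASXL1, ASXL2, CHD6, EPB41, PER3, SIRT7, SRPK2 and THBS1, named after their values were seen. The MDV-R level was carried over as it stood, with no allowance for a different amount of the transcript in C4-2B, so these counts do not give the level a site would have had there. Background at the shared region need not match that at the member, even within MDV-R. It was 28.1 against 3.68 in ASXL2 and 9.23 against 48.6 in VHL. The counts therefore do not give the C4-2B threshold at the member itself either.

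**Figure D2:**
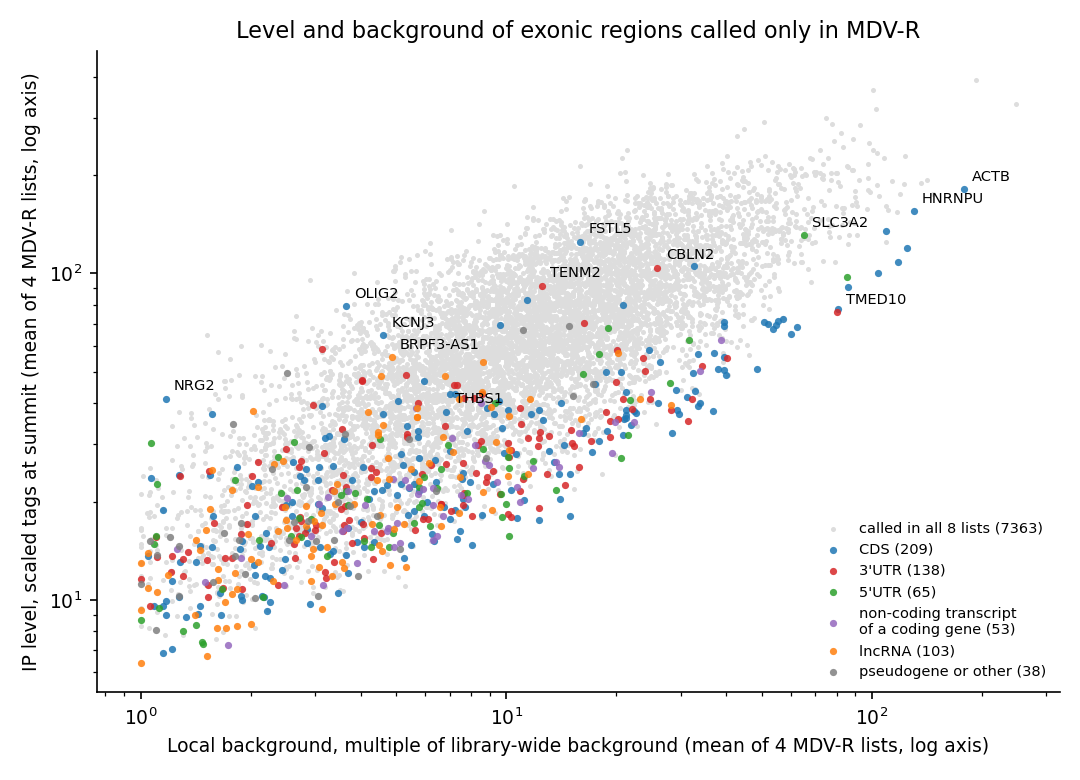
Mean IP level (scaled tags, log axis) against mean local background (multiple of the library-wide value, log axis) of each member over the 4 MDV-R lists, coloured by feature class, beside the regions called in all 8 lists. Members extend from a background of 1.00, where fold enrichment reached over 30, to 178 in ACTB, where it was 3.52.

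Members differed widely in background. With limits drawn after the values were seen, 306 members (50.5%) had a background under 5 times the library-wide value, 221 (36.5%) between 5 and 20, and 79 (13.0%) of 20 or more. Median IP level rose over these bands from 15.9 to 25.9 and 50.3 scaled tags, and median fold enrichment fell from 9.68 to 7.55 and 4.70. The lowest band held 23.2% lncRNA members, the highest 3.80%. Genes without any C4-2B peak held 56.2% of members in the lowest band, 38.9% in the middle and 40.5% in the highest. Of the regions called in all 8 lists, 19.2%, 56.2% and 24.6% fell in the same bands.

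The 4 members with the highest IP level, in ACTB, HNRNPU, MRFAP1 and SLC3A2, had a high background and a modest fold enrichment. The last exon of ACTB, the cytoskeletal beta-actin, had a member at chr7:5527500-5528149 over the end of the coding sequence, with 208, 200, 159 and 158 scaled tags in MDV-R replicates 1 to 4. Its background was 141, 160, 280 and 130 and its fold enrichment 3.52 ± 1.12 (SD, n = 4). Replicate 3 was the one with the highest background and the lowest fold enrichment, 1.92.

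The first exon of HNRNPU, a nuclear RNA-binding protein, gave 163, 168, 136 and 152 scaled tags at chr1:244863824-244864625, at a fold enrichment of 4.08 ± 1.33. MRFAP1 gave 153, 138, 125 and 123 with a fold enrichment of 4.51 ± 1.73. ACTB and HNRNPU had no C4-2B peak in the gene, although their transcripts are made by all human cell types, whereas MRFAP1 had 3 peaks summed over the C4-2B lists.

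Among members in untranslated exons, the 5′ UTR of SLC3A2, the shared heavy chain of several amino acid transporters, gave 154, 114, 120 and 136 scaled tags. Next in level among 5′ UTRs were TCEAL9 with 90.3, 120, 88.5 and 91.0, EIF4A3, an RNA helicase of the exon junction complex, with 77.1, 68.4, 65.3 and 61.6, and ARPC5, a subunit of the actin-nucleating ARP2/3 complex, with 60.6, 66.2, 64.4 and 58.8. In the 3′ UTR of TMED10, a cargo receptor of the early secretory pathway, the level was 84.8, 80.5, 73.0 and 65.4 at the lowest fold enrichment of all members, 3.07 ± 0.662. In all, 19 members had a background of 50 or more, with fold enrichment between 3.07 and 6.77, and 12 of them lay in genes without a C4-2B peak.

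Other members had little input signal and a high fold enrichment. Mean fold enrichment was 20 or more in 18 members, 15 of them in genes without a C4-2B peak. The highest was in OLIG2, a transcription factor of the oligodendrocyte and motor neuron lineage. Its coding exon at chr21:33026584-33028558 gave 74.9, 79.4, 92.8 and 71.1 scaled tags over a background of 3.64, a fold enrichment of 38.6 ± 8.08. These members were picked by fold enrichment after their values were seen.

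NRG2, a ligand of ErbB receptors, followed with 33.0, 41.9, 53.3 and 37.0 scaled tags at chr5:139847730-139848746 and a fold enrichment of 31.8 ± 10.6. KCNJ3, a subunit of G protein-gated potassium channels, gave 57.3, 76.1, 63.6 and 61.6 and 29.7 ± 12.2. NRXN2, a presynaptic adhesion protein, gave 40.7, 40.8, 37.8 and 28.4 and 25.4 ± 2.62. All 3 lay in the last exon, in coding sequence, in genes without a C4-2B peak, and their levels were above that of the median member in every list.

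Some members of genes without a C4-2B peak combined a high level with a high fold enrichment. FSTL5, a secreted follistatin-like protein, gave 121, 151, 119 and 109 scaled tags in its last coding exon, fold enrichment 23.1 ± 7.72. CBLN2, a secreted organiser of synapses, gave 115, 124, 95.3 and 80.6 in its 3′ UTR, 68 nt past the stop codon, fold enrichment 12.7 ± 3.97. TSPYL2 had a similar level, 107, 103, 98.8 and 92.0, but a background of 104 and a fold enrichment of only 3.35 ± 1.19.

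**Figure D3:**
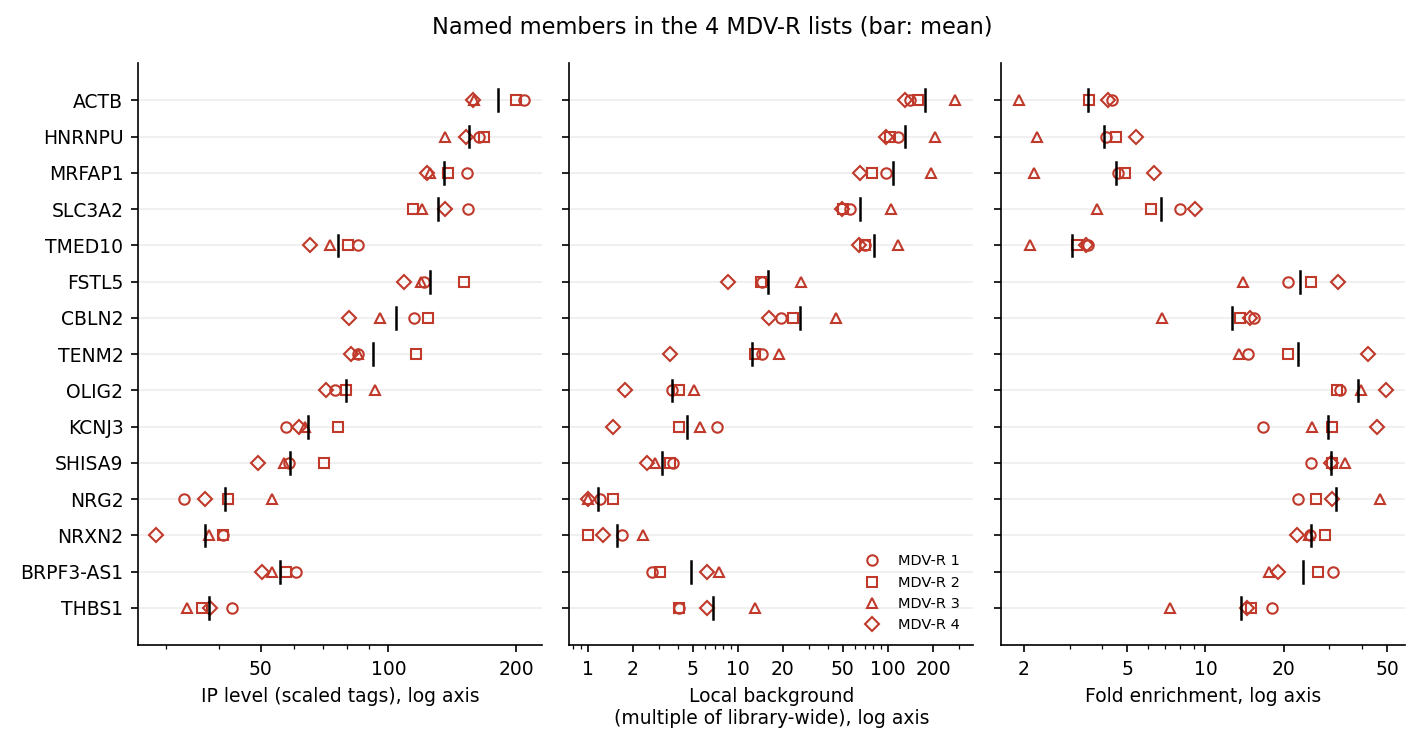
IP level (scaled tags), local background (multiple of the library-wide value) and fold enrichment of named members, each on a log axis, with 1 point per MDV-R list and a bar at the mean. ACTB, HNRNPU, MRFAP1 and SLC3A2 lie above 110 in every list at fold enrichment under 10, whereas OLIG2, NRG2, KCNJ3 and SHISA9 have lower levels and fold enrichment near 30 or more.

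In 7 genes the calls recurred along the transcript, with 3 or more members each. ADRA1A, the alpha-1A adrenergic receptor, held 4 and had no C4-2B peak: 1 in the 5′ UTR with a mean of 20.3 scaled tags, 1 in the last coding exon with 46.8 ± 12.4 and 2 in the 3′ UTR exons with 13.4 and 17.5. The coding one was the strongest, with 38.5, 65.1, 43.8 and 39.8 in the 4 lists, at a fold enrichment of 17.2 ± 5.42. TENM2, a transmembrane adhesion protein of neurons, also had no C4-2B peak and held members in coding exons 25 and 29 (means 32.8 and 31.5) and in the 3′ UTR, where the lists gave 84.8, 116, 85 and 81.5.

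SHISA9, an auxiliary subunit of AMPA-type glutamate receptors, held a CDS member at a mean of 25.7 and 3′ UTR members of different transcripts at 26.7 and 58.7, the last with a fold enrichment of 30.3 ± 3.58. ATXN1, a nuclear protein mutated in a spinocerebellar ataxia, held 2 in its last exon at means of 33.1 and 50.3 and 1 in a non-coding transcript at 25.3. In MACF1, a linker of microtubules and actin, all 3 lay in exon 37 at only 12.1 to 17.3. In MICALL1, an adaptor of endocytic recycling, they lay in exons 6, 8 and 9 at 37.3 to 56.5. ATXN1, MACF1 and MICALL1 also had regions called in all 8 lists. SLC6A10P is a pseudogene of a creatine transporter gene. Although the study kept uniquely aligned reads only, which copy gave them is uncertain, and 2 of its 3 members carry the same peaks.

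The strongest members in lncRNA exons lay near 55 scaled tags. ST7-AS1 gave 57.3, 57.4, 58.4 and 55.9, BRPF3-AS1 60.6, 57.4, 53.3 and 50.3, the unnamed gene ENSG00000230454 56.2, 54.1, 51.5 and 53.1, and LINC00923 47.4, 49.6, 49.8 and 47.4. None of these 4 genes had a C4-2B peak. Their fold enrichment differed far more than their level, from 8.54 ± 2.07 in ST7-AS1 to 23.7 ± 6.41 in BRPF3-AS1. Among non-coding transcripts of coding genes, the strongest were in SRRM2 (mean 62.6 ± 4.12), a splicing co-activator, NEDD8 (50.1 ± 5.26), a ubiquitin-like modifier, MYEF2 (43.2 ± 7.73) and LPO (40.2 ± 6.37), lactoperoxidase.

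Of the other gene types, TUFMP1 (69.1 ± 6.76), SNX18P14 (67.1 ± 7.34), ENSG00000265417 (49.5 ± 10.2) and AHSA2P (45.8 ± 4.99) were strongest. The pseudogenes among these share sequence with a parent gene, and which copy gave their reads is uncertain.

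Gene lists for functions of interest in prostate cancer held few members, and their shares are given against the 3.07% of all exonic regions. The neuroendocrine and neuronal list had the highest share among lists with over 20 regions, 6 of 63 (9.52%). Its members included those in CACNA1D, a voltage-gated calcium channel, NKX2-1, a lineage transcription factor, NRXN2, PCLO, a scaffold of the presynaptic zone, and SV2B, a synaptic vesicle protein. PCLO was called elsewhere in all 8 lists and gave 26.4, 30.9, 27.5 and 19.0 scaled tags in exon 6. NKX2-1 had no C4-2B peak and gave 14.3, 12.1, 20.6 and 17.1.

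The androgen response list had 1 member among 82 regions (1.22%), in exon 4 of STEAP2, a metalloreductase, with 54.0, 58.5, 49.8 and 41.7 scaled tags. The steroid and drug metabolism list had 1 of 18 (5.56%), in the 3′ UTR of the glutathione transferase GSTM3, with 37.4, 39.7, 42.9 and 33.2 and no C4-2B peak in the gene. The extracellular matrix and adhesion list had 2 of 76 (2.63%), in THBS1 and in the 5′ UTR of ITGA5, a subunit of the fibronectin receptor.

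Among signalling genes, the Wnt, Notch, Hedgehog and TGF-beta list had 4 of 169 (2.37%). They were in the ligand WNT5A (mean 28 ± 3.40), the receptor FZD4 (30.2 ± 2.89), the Notch antagonist NUMB (43.5 ± 5.24) and the Hedgehog transcription factor GLI2 (9.01 ± 2.03). The growth factor and kinase list had 3 of 157 (1.91%), in NRG2, in the receptor FGFR2 (17.1 ± 3.40) and in the SRC-family kinase YES1 (39.3 ± 5.67), all in genes without a C4-2B peak.

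Chromatin regulators had 7 of 313 (2.24%), in ASXL1, ASXL2, CHD6, CHD9, CREBBP, KMT5C and SIRT7. The acetyltransferase CREBBP was the strongest at 61.7, 57.4, 60.1 and 53.1 in exon 14. The list of transcription factors of development had 1 of 207 (0.483%), in the 5′ UTR of FOXO3. It leaves out OLIG2 and BCL11B, which held members, and NKX2-1 and GLI2 were counted in other lists, so the share is that of the list only. C2H2 zinc finger genes, taken by symbol prefix, had 14 of 1039 (1.35%), among them the lncRNA ZNF571-AS1 and the pseudogene ZNF849P. ZNF516 was strongest with 71.6, 79.4, 66.1 and 64.5. Solute carriers had 12 of 348 (3.45%), close to the share over all regions, led by SLC3A2 and SLC22A3, an organic cation transporter (49.8 ± 3.27).

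Genes with an RPL or RPS symbol, a prefix that also takes in pseudogenes and RPS6K kinase genes, had 6 of 79 (7.59%). Of these, 5 were pseudogenes and the only functional gene was RPL27A. There was no member among 42 regions of the m6A writers, erasers and readers, 115 of cell cycle and repair genes, 59 of sterol, fatty acid and glucose metabolism and 84 of interferon genes, where a share of 3.07% would give at most a few in each.

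The share of member summits with the core motif was below that of regions called throughout in every MDV-R list, though 4 pairs cannot bring a test under 0.05. On the gene's strand, GGAC lay no more than 50 nt from the summit in 44.1%, 44.9%, 48.7% and 45.2% of members in MDV-R replicates 1 to 4, a mean of 45.7% ± 2.04 (SD, n = 4 lists). In the same lists it lay at 50.1% ± 1.34 of the regions called in all 8. The difference of -4.45 ± 1.46 percentage points had the same sign in 4 of 4 lists (exact two-sided sign-flip permutation test, p = 0.125, the smallest that 4 pairs allow). The members were above the levels of 2 reference windows, 30.2% ± 1.42 on the opposite strand and 30.6% ± 0.943 in windows of the same length 300 nt away. For regions called in all 8 lists these references were 26.3% and 29.0%. Regions called only in C4-2B had GGAC at 44.4% ± 2.79 of their summits in the C4-2B lists, so a share below that of regions called in all 8 lists was found in both sets. Their references were lower than those of the members, 18.9% ± 1.74 on the opposite strand and 26.7% ± 1.51 at 300 nt. The margin over the opposite strand was thus narrowest in the members, a difference not tested. The looser motif DRACH (D is A, G or T, R is A or G, H is A, C or T) was at 88.2% of member summits.

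By class, GGAC was at 49.6% ± 3.41 of CDS members, 47.7% ± 5.76 of 5′ UTR members, 42.5% of lncRNA members and 41.3% ± 3.40 of 3′ UTR members. For 138 members it was near the summit in all 4 lists, and for 202 in none. NRG2, NRXN2, OLIG2 and CBLN2 were among the former and HNRNPU, FSTL5, EIF4A3 and CREBBP among the latter. A summit without GGAC says only that these 4 letters were not in this window.

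THBS1, thrombospondin-1, a matrix glycoprotein, was the one gene with a member among the 6 that the study carried from qPCR and MeRIP-qPCR to knockdown. It had a member at chr15:39590356-39592042 whose midpoint lay in coding exon 15. Taken at the summits, its level was 42.9, 36.4, 33.5 and 37.9 scaled tags, its background 4.05, 4.04, 13.1 and 6.19, and its fold enrichment 13.7 ± 4.56. The summit of MDV-R replicate 4, printed above, lay in a coding exon downstream of exon 15. The strongest peak, that of MDV-R replicate 1, had its summit outside the coding exons of that transcript and was passed over for printing. A further member, at chr15:39587561-39589438, overlaps the upstream part of THBS1 but was assigned by its midpoint to a non-coding transcript of FSIP1 on the other strand. It gave 38.5, 40.8, 42.1 and 33.2 scaled tags, and without strand in the lists these genes cannot be told apart. A region at chr15:39592984-39593761 had the same pattern of calls, but its midpoint lay in an intron.

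The 3′ UTR of THBS1, at chr15:39595216-39596432, was called in all 8 lists. Its local background was 150, 117, 84.8 and 115 in C4-2B and 4.83, 3.54, 5.63 and 1.63 in MDV-R, without overlap. Its IP level was 257, 310, 329 and 332 scaled tags in C4-2B and 76, 72.8, 67.9 and 61.6 in MDV-R, also without overlap. Of 5742 genes with an exonic region called in all 8 lists, 921 were lower in MDV-R without overlap in background and 708 in IP level. Fold enrichment ran the other way, 4.86, 7.67, 11.1 and 8.71 in C4-2B against 28.6, 31.7, 27.3 and 44.4 in MDV-R.

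At the C4-2B background of the 3′ UTR, a call would have needed 87.1, 66.3, 52.2 and 64.9 scaled tags in C4-2B replicates 1 to 4. The mean level of the coding THBS1 member in MDV-R, 37.7, was below all 4. With the background borrowed from the 3′ UTR, a site at that same level would have stayed below the threshold in C4-2B. The C4-2B background at the member itself has no value in the lists. The comparison makes no allowance for the amount of transcript, and at the 3′ UTR the mean IP level was 307 in C4-2B against 69.6 in MDV-R. The peak lists hold no C4-2B level for this site, so the check cannot decide whether the mark is present there. The paper has other evidence on both points. It reports less THBS1 mRNA in MDV-R by RNA-seq and RT-qPCR, and higher methylation of an exonic THBS1 peak in MDV-R by MeRIP-qPCR.

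**Figure D4:**
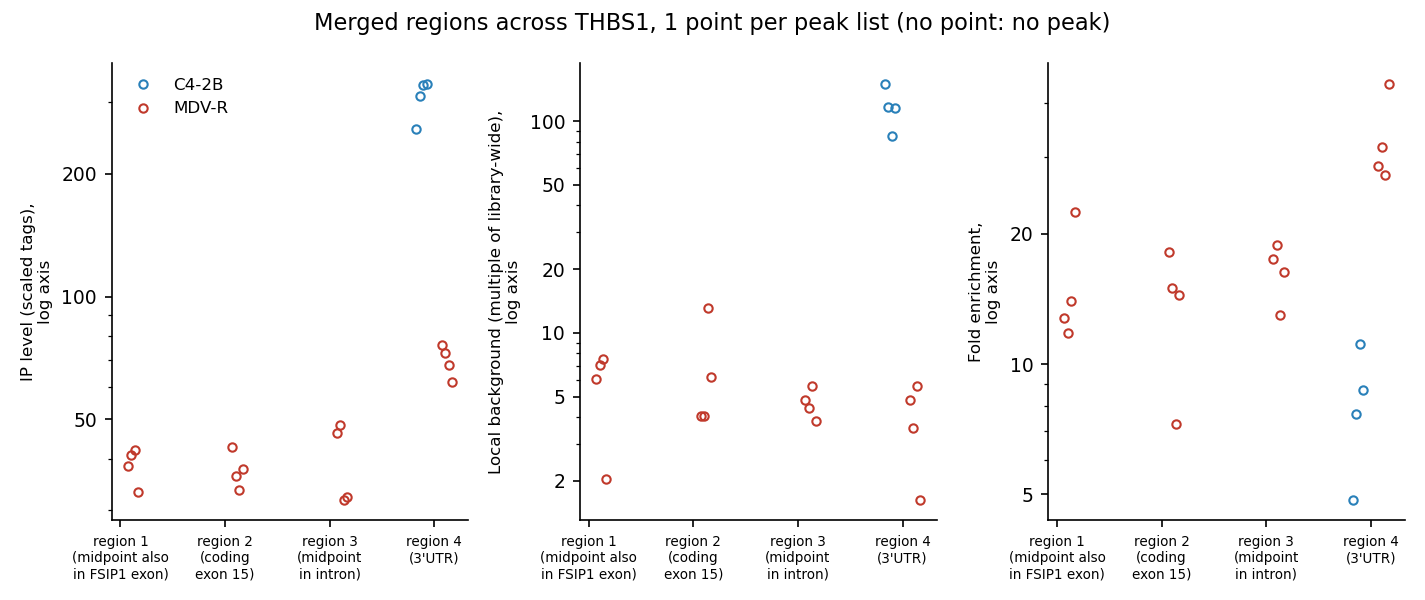
IP level (scaled tags), local background (multiple of the library-wide value) and fold enrichment, each on a log axis, at the 4 merged regions across THBS1, 1 point per list and coloured by line. The first 3 regions have values in MDV-R only, and at the 3′ UTR background is 84.8 to 150 in C4-2B and 1.63 to 5.63 in MDV-R, while fold enrichment is higher in MDV-R.

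The other genes that hold a member could be compared in the same way, at a region the rule did not use. These genes were chosen by calls in the same transcript, so the comparison is not independent of the rule. In GPR162 the shared region ended at chr12:6825994 and the member began at 6826202, so their local backgrounds can draw on the same input. In each of 5742 genes with an exonic region called in all 8 lists, the strongest such region was compared between lines with limma (log2 values, 4 against 4 lists, Benjamini-Hochberg over all 5742 genes, adjusted p of 0.05), and 138 of these genes held a member. The local background moved down over all genes, with a median change of -0.50 (log2, MDV-R minus C4-2B), and 2.21% of genes were called higher and 17.0% lower. Input tags per IP tag were 0.747 to 1.22 in C4-2B and 1.56 to 3.15 in MDV-R, so line and input depth cannot be told apart in these background changes. Of the 138, 17 (12.3%) were called higher and 12 (8.70%) lower, with a median of -0.04. With each library centred on its median, the 138 split into 35 higher and 7 lower, and all genes into 450 and 638. Without MDV-R replicate 3, the 138 split into 12 higher and 30 lower and all genes into 105 and 2281, so which direction is commoner among the 138 depends on that library.

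IP level was called higher in a larger share of the genes with a member than over all genes, a difference not tested as such. Over all genes, 13.9% were called higher and 17.5% lower, with a median change of -0.04. Of the 138, 53 (38.4%) were called higher and 7 (5.07%) lower, with a median of 0.20, and centring gave 73 higher and 15 lower of the 138 and 1528 and 1687 of all genes. The shared region belongs to the same transcript as the member, so this is a measurement of the transcript's captured RNA elsewhere and not of the member.

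The largest rises in IP level were in GPR162, SEMA6A, LINC01029 and BCL11B. GPR162, an orphan receptor, went from 14.7, 10.0, 14.1 and 6.72 scaled tags in C4-2B to 145, 177, 137 and 126 in MDV-R, a log2 change of 3.74 ± 0.17 (SE, limma adjusted p = 5.12e-97). SEMA6A, a transmembrane semaphorin of axon guidance, went from 15.6, 11, 13.0 and 22.4 to 126, 128, 117 and 107, a change of 2.99 ± 0.17. BCL11B, a zinc finger transcription factor, rose by 2.36 ± 0.16 and the lncRNA LINC01029 by 2.60 ± 0.15. No C4-2B list overlapped the MDV-R lists in any of these genes. They were picked as the largest rises, and such non-overlap was common. It was found on the higher side in 765 of 5742 genes and 51 of the 138, and on the lower side in 708 and 4.

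Background rose with IP in all 4. LINC01029 rose from 6.66, 2.09, 2.75 and 2.68 to 47.1, 33.4, 86.3 and 32.2 (log2 change 3.84 ± 0.47, limma adjusted p = 8.41e-14), BCL11B by 3.19 ± 0.51, GPR162 by 2.89 ± 0.53 and SEMA6A by 2.41 ± 0.52 (adjusted p = 0.000149). KCNG1, a modifying subunit of voltage-gated potassium channels, rose by 3.56 ± 0.51 in background, from 1.00 to 3.33 in C4-2B up to 16.2 to 33.8 in MDV-R. Some C4-2B values lay at the floor of 1.00: replicates 1 and 4 in GPR162, 4 in KCNG1, 3 in BCL11B and 1 in SEMA6A. The size and SE of the background rises in these genes rest partly on floor values.

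The largest falls in background were in THBS1 (-5.01 ± 0.42, limma adjusted p = 8.48e-30), the chromatin remodeller CHD9 (-1.90 ± 0.47, adjusted p = 0.00114), ZNF595 (-1.67 ± 0.52, adjusted p = 0.0123) and the Wnt receptor FZD4 (-1.43 ± 0.41, adjusted p = 0.00603). The ZNF595 call was lost with centring (adjusted p = 0.0608) and without MDV-R replicate 4 (0.0564), that of FZD4 without C4-2B replicate 1 (0.0554), and that of CHD9 when its weakest shared region was used (0.105). IP level fell most in THBS1 (-2.14 ± 0.14, adjusted p = 8.61e-47) and ZNF595 (-0.92 ± 0.20), and by less in RNF213 (-0.55 ± 0.15) and ABHD11 (-0.52 ± 0.14).

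**Figure D5:**
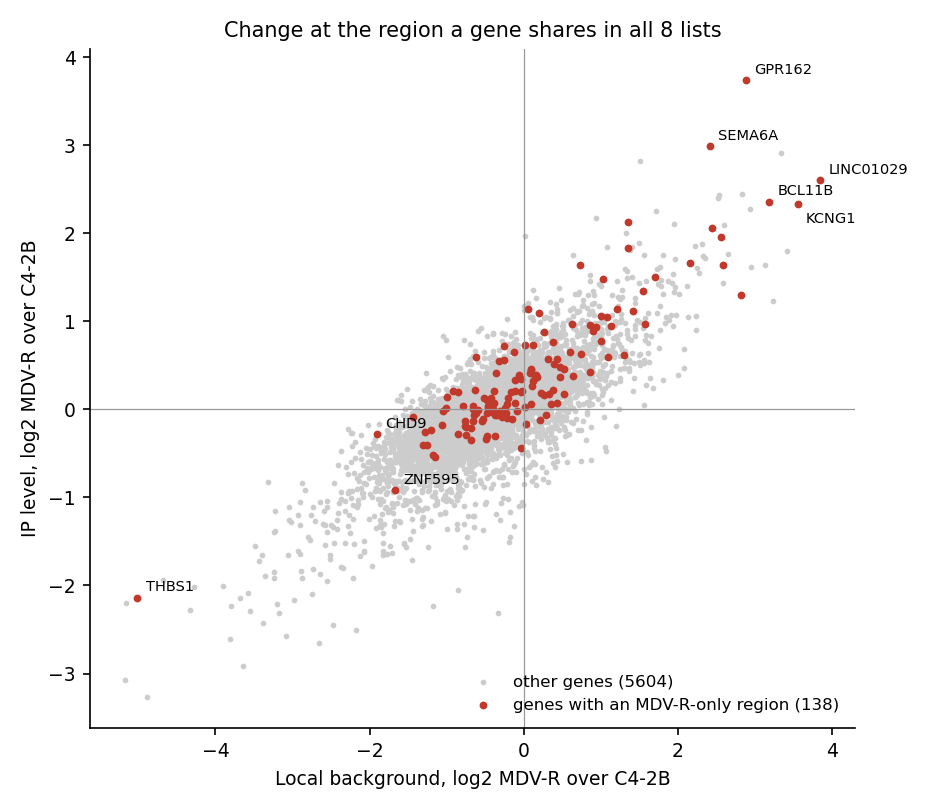
Change in IP level against change in local background (log2, MDV-R minus C4-2B) at the strongest region called in all 8 lists, 1 point per gene, for 5742 genes and the 138 that hold a member. THBS1 lies at -5.01 in background and -2.14 in IP, and GPR162, LINC01029 and BCL11B lie high on both axes.

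IP minus background, the change in capture beyond the change in input, was called higher in 0.313% of all genes (18) and lower in 0% (limma, with 899 genes at an unadjusted p under 0.05 in either direction). Among the 138 genes with a member, THBS1 alone was called (2.87 ± 0.52, adjusted p = 5.16e-05), with no overlap between lines, and 15 had an unadjusted p under 0.05. The lines did not overlap in 6 of the 138, all higher, and in 323 higher and 21 lower of all genes. The median was 0.33 in the 138 and 0.47 over all genes. Here too line and input depth cannot be told apart. Without MDV-R replicate 3, 18 of the 138 and 1250 of all genes were called higher, so the low count depends on that library.

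Regions near the limits of the rule were many. Of exonic regions, 507 had a peak in all 4 MDV-R lists but also in 1 from C4-2B, and 703 had one in 3 MDV-R lists and none from C4-2B. Just inside the limit, members of ASXL1 and of GPT2 were called with a -log10 q of 2.05 and 2.11 in their weakest list, both in MDV-R replicate 3. Just outside, ENSG00000280424 and the 3′ UTR of the syndecan SDC3 were called once in C4-2B, in replicate 2, with a -log10 q of 2.04 and 2.16. The strongest regions missing 1 MDV-R list were in ENSG00000282885 (268, 247 and 250 scaled tags) and in the 5′ UTR of FTH1, the ferritin heavy chain (239, 237 and 200), both without a call in replicate 3.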

How the data were processed

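IP and input RNA of C4-2B and MDV-R cells was sequenced after fragmentation and capture with an antibody to m6A (stranded total RNA kit, 4 IP and 4 input libraries per line). By the study's methods, reads were aligned with STAR 2.7.0 to hg38 with GENCODE annotation. Uniquely aligned reads were kept and duplicates removed with SAMtools 1.10. Peaks were called for each IP library against input with MACS2 3.0.0a6. The deposited lists give for each peak a fold enrichment (ratio of IP to local background at the summit), a -log10 p, a -log10 q and a score that rounds the -log10 q times 10, as the authors' caller wrote them, and the deposited merged list gives regions without values. No counts were used, so the study's differential test was not run. Relative depth per library is known only by its ratio to the other libraries: a fixed total could not be set, because the extension and genome size in the methods are at odds with the lists (smallest peaks of 239 to 293 nt, and implied totals of 317476 to 414102 IP tags against 717530 to 1091931 tags at summits). Levels are therefore scaled tags and not CPM as first planned, and local background is a multiple of the library-wide value, solved from fold enrichment and -log10 p for each peak.

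Regions were overlapped with bedtools 2.31.1 and placed on GENCODE v44 exons of GRCh38, strand not used, CDS coming before 3′ UTRs, these before 5′ UTRs, and then non-coding transcripts, lncRNA genes and others. The strongest peak by -log10 p stood for a list. Lines were compared with limma 3.58.1 (R 4.3.3, lmFit and eBayes with trend, Benjamini-Hochberg) at regions called in all 8 lists, 1 per gene, and motif shares with an exact sign-flip permutation test (scipy 1.17.1). Python 3.11.15, numpy 2.4.6, pandas 2.3.3, pysam 0.24.0 and matplotlib 3.10.9 were used, and the fit was tested on simulated data. Replicate numbers did not pair the samples. Alternatives covered the threshold, overlap, list size, annotation, scaling and each library left out. Members and gene lists were chosen with earlier results of these data known. Named genes were the 6 the study carried to knockdown, the 4 strongest of each class, genes with 3 or more members, up to 4 per gene list, the 6 strongest in genes without a C4-2B peak, those at the threshold, and the largest changes at shared regions, and others are said to be picked after their values were seen. A few items that this rule names are not reported here.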

Additional observations from a re-analysis of the deposited data

Results flagged for a closer look

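In 164 groups of 4 values of named members, 15 held a value farther from the other 3 than Dixon's limit, where chance gives about 1 in 20. Of these, 11 were local backgrounds, 10 of them high values in MDV-R replicate 3, and 4 were scaled tags high in MDV-R replicate 2.

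In MDV-R replicate 3 the background was 105 at SLC3A2 (the other lists 49.5 to 55.6), 116 at TMED10 (64.3 to 70.8), 35.7 at EIF4A3 (12.4 to 14.8), 52.5 at YES1 (26 to 29.0) and 20.6 at SIRT7 (6.07 to 8.46). It was 37.5 (16.1 to 19.3) and 67.6 (21.8 to 22.3) at the MICALL1 members of exons 6 and 8, 18.8 at FOXO3 (2.33 to 3.00), 33.5 at ST7-AS1 (15.2 to 16.3) and 5.63 at a member of SLC6A10P (2.76 to 3.03). This library had the least input per IP tag of the MDV-R libraries, 1.56 against 2.71 to 3.15, and the part of this in its background was not tested. In MDV-R replicate 4 the 5′ UTR member of ZNF804A had a background of 1.48 (1.00 to 1.01). The other lists lay at or next to the floor of 1.00 there, where Dixon's limit does not apply.

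In MDV-R replicate 2 the scaled tags were 25.4 at ASXL2 (17.2 to 18.0), 116 at the 3′ UTR of TENM2 (81.5 to 85), 23.2 at a 3′ UTR member of ADRA1A (15.4 to 16.1) and 120 at TCEAL9 (88.5 to 91.0).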

How the results depend on the processing

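The 606 members became 299 when each list was limited to the size of the smallest, 116 of them among the 606, and leaving out 1 library gave 610 to 1011, the highest without MDV-R replicate 3. A -log10 q of at least 5 gave 601 with 535 of the same regions, summits 619, an overlap of 50% 606, canonical transcripts 495, a distance of 500 nt from C4-2B peaks 566 and a newly built union 651. With canonical transcripts the share in CDS was 40.2% and in non-coding exons 23.4%. Leaving out 1 library gave 33.7% to 40.1% for CDS, 28.2% to 32.5% for non-coding exons, 21.0% to 23.7% for 3′ UTRs, 9.20% to 11.9% for 5′ UTRs, 41.2% to 48.0% for genes without a C4-2B peak and 25.7% to 28.3% for the stop codon window, the last 2 results having had their alternatives chosen after seeing the data. The GGAC share was 26.4% within 25 nt, 88.2% for DRACH and 42.1% to 46.2% with 1 MDV-R library left out, and the difference to regions called in all 8 lists then ran from -7.62 to -3.77 points.

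With a replicate block, 22 of the 138 genes were called in background (15 higher, 7 lower), 53 in IP (49 and 4) and 1 in IP minus background, against 29, 60 and 1 without it. Over all genes the block gave 112 higher and 759 lower in background, 664 and 784 in IP, and 6 in place of 18 for IP minus background. Replicate numbers shared no deviations (correlations of -0.0371 to 0.0308), so the samples share only a number. Leaving out 1 library gave 17 to 42 genes for background, 49 to 64 for IP and 1 to 18 for IP minus background, with the highest of the first and the last without MDV-R replicate 3. Centring on the library median gave 3 genes for IP minus background (1 higher, 2 lower) and the exact permutation test at unadjusted p gave 6. None of these alternatives reversed the change of a named gene at its shared region. Depth limits the weak end: a region is a member by calls, and a C4-2B level below its threshold has no value in the lists.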
